A study of Homo sapiens with 6 samples.

Results

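The YAP and TAZ branch of the Hippo pathway was described here through 10 genes, chosen by name. They were the coactivators YAP1 and WWTR1 (the gene of TAZ), the DNA-binding partners TEAD1 and TEAD4, the pathway regulators LATS2, AMOTL2 and AJUBA, and the target genes ANKRD1, CCN1 and CCN2. All 10 were found among the 36459 gene symbols of the count table. RNA had been sequenced from PC9, an established human lung adenocarcinoma line that depends on mutant EGFR, and from the persister cells (PS) that remained when erlotinib, which blocks the EGFR kinase, had been given at 15 µM for 6 days. Each group had 3 libraries. Each PC9 library came from its own culture, and the 3 PS libraries were pooled from 9 cultures. Both groups come from 1 cell line, and the PS cells were both the survivors of the drug and still exposed to it, so that selection and direct drug response cannot be told apart in this design.

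YAP and TAZ carry no DNA-binding domain of their own and reach their target genes by binding TEAD factors. When the Hippo kinases are active, LATS kinases phosphorylate YAP and TAZ, which are then held in the cytoplasm or degraded, whereas low cell density, spreading and tension on the actin cytoskeleton let them enter the nucleus. In EGFR-mutant lung cancer cells this pathway has been studied for its part in survival under EGFR inhibitors. RNA counts measure neither phosphorylation nor location of a protein, so the values below describe transcript levels of the components and targets only.

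The sequence letters that TEAD factors recognise were looked up in the promoters of the members, as a description. RefSeq promoters of GRCh38.p14, 250 bases before to 50 bases after each annotated start, were given for 7 members. Searched on both strands, GGAATG (the core of the TEAD motif, CATTCC on the other strand) was found in 14% of 35116 promoters of this length, and 2 or more copies were found in 1.37%. ANKRD1 (chr10:90921088-90921337, minus strand) had 2 copies, the first bases of which lay 220 and 128 bases before the start. CCN2 (chr6:131951373-131951622, minus strand) had 3, starting 169, 104 and 95 bases before the start, a number reached by 0.128% of promoters. The downstream one of the 2 annotated starts of AMOTL2 (chr3:134374448-134374697, minus strand) had 1 copy, which was read on the opposite strand 69 bases before the start. These promoters are printed 5′ to 3′ on the strand of the gene, up to the base before the start, with the motif in capitals.
ANKRD1: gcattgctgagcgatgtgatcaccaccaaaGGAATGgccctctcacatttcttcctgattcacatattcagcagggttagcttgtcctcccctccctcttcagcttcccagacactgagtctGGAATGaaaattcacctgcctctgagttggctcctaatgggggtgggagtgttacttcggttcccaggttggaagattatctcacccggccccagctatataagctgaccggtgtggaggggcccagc
CCN2: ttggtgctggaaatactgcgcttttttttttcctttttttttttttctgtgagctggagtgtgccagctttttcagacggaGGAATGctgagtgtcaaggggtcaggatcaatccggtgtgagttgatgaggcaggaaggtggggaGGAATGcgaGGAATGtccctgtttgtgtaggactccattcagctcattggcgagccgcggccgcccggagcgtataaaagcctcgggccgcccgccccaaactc
AMOTL2: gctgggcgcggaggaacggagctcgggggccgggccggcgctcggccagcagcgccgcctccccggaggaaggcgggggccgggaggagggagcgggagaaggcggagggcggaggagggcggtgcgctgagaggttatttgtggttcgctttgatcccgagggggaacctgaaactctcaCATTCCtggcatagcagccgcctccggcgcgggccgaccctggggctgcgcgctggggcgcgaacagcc

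Of the remaining members, YAP1 had 1 copy 162 bases before its start, and AJUBA had 1 copy 59 bases before the downstream of its 2 starts. In LATS2 the single copy began 9 bases after the start, and neither start of WWTR1 had one. TGANTCA, a pattern wider than the AP-1 motif because any middle base was allowed, was in 7.71% of promoters. It was in 1 member promoter, that of ANKRD1, between the 2 TEAD motifs. That match reads TGATTCA, with T where the AP-1 consensus has C or G. A CArG box, the motif of serum response factor (SRF), was in 1.29% of promoters and in none of the 7 members. A match is a run of letters and not a measured binding site. Whether the matches bear on the direction in which a gene moved was not tested. CCN1, TEAD1 and TEAD4 were not among the promoters used here.

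**Figure D1:**
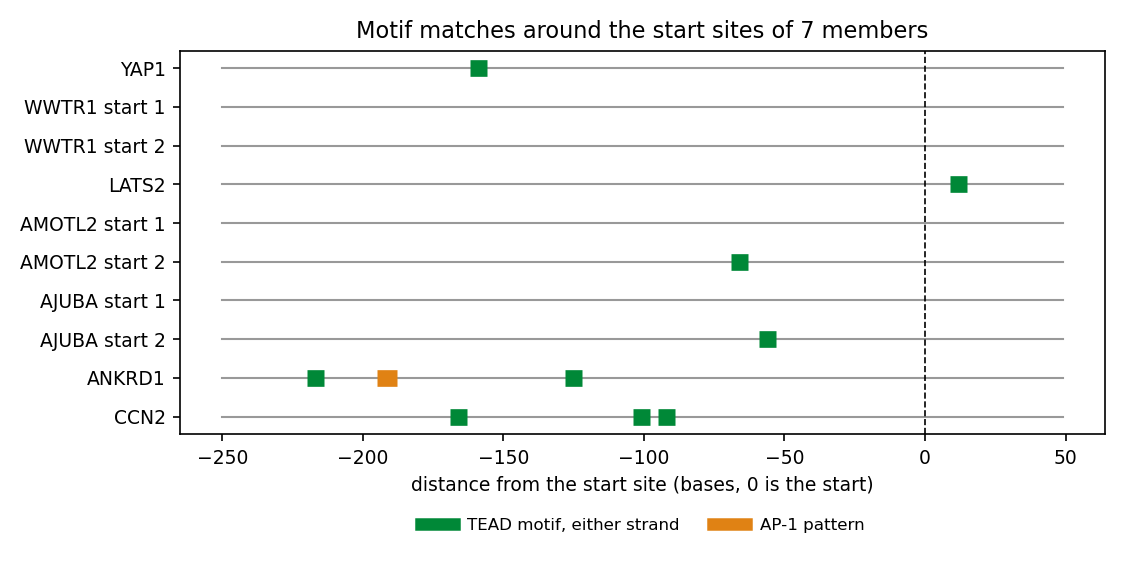
Positions of the TEAD motif and of TGANTCA, the wider AP-1 pattern (blocks), in the RefSeq promoters of 7 members. Each annotated start has 1 line, with the distance from that start in bases on the horizontal axis. ANKRD1 holds 2 TEAD motifs with a TGANTCA match between them, and CCN2 holds 3 TEAD motifs.

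Library totals were 29476725 to 34893782 gene counts. Counts are given as CPM (counts scaled to the same library total, with edgeR's TMM factors), and genes were tested with its quasi-likelihood test. A gene was called at a Benjamini-Hochberg adjusted p under 0.01, and the p-values named below are these adjusted ones from edgeR. The epithelial markers EPCAM, CDH1, KRT7, KRT8, KRT18 and KRT19 together reached 7519 to 8051 CPM in PC9 and 5936 to 6298 CPM in PS, but did not share a direction. CDH1 had 206 to 209 CPM in PC9 and 313 to 315 CPM in PS, and KRT7 had 1939 to 2066 and 2605 to 2799 CPM, whereas all PS libraries were below all PC9 libraries for EPCAM, KRT8, KRT18 and KRT19. Of 6 fibroblast markers, 5 stayed under 1 CPM in every library and COL3A1 was at 0, while COL1A1 made nearly the whole sum of 10.2 to 10.7 CPM in PC9 and 26.5 to 30.1 CPM in PS. Of 4 immune markers, 3 stayed under 1 CPM, and the sum, carried by CD68, ran from 74.5 to 76.4 CPM in PC9 and from 19.6 to 22.6 CPM in PS. PECAM1, VWF and CDH5, markers of endothelium, summed to 8.05 to 8.82 CPM in PC9 and 3.254 to 3.804 CPM in PS. Whether these differences have a part in the results that follow was not tested.

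All 10 members passed the filter on low counts, and 8 were called. TEAD1, AMOTL2, AJUBA, ANKRD1 and CCN1 rose in PS, and YAP1, WWTR1 and CCN2 fell. Among the 14626 genes tested 56.8% were called, 28.7% as higher and 28.1% as lower in PS, so that calls were common in this comparison. AJUBA, ANKRD1 and CCN1 also passed a fold of 2, against 11.6% of all genes in either direction and 5.65% upward. The 3 PC9 and the 3 PS libraries did not overlap for any of the 10 members, which was so for 71.3% of all genes tested. In bulk RNA a change in the share of cells that express a gene and a change in RNA per cell cannot be told apart.

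**Figure D2:**
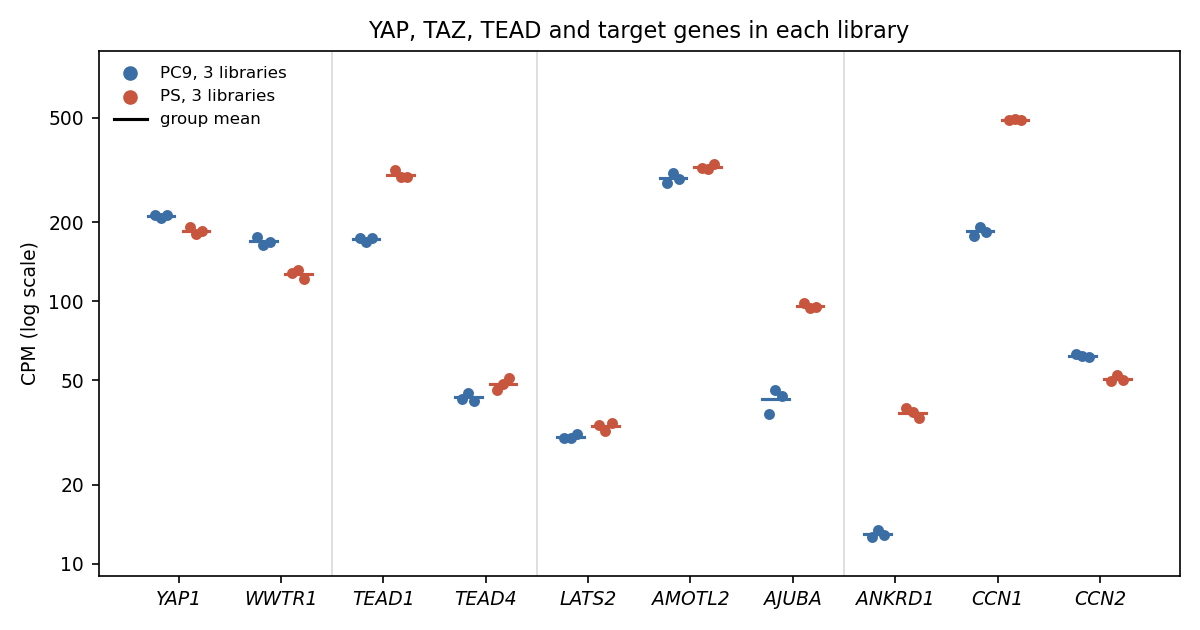
CPM of the 10 members in each library on a log axis, with 1 point per library and a bar for the group mean. CCN1, AJUBA, ANKRD1 and TEAD1 show wide gaps between PC9 and PS, whereas the gaps of TEAD4, LATS2 and AMOTL2 are close to the spread between libraries.

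Both coactivators fell, by modest amounts. YAP1 (ENSG00000137693, chromosome 11, 102110447 to 102233424, plus strand, GRCh38) had 214, 207 and 213 CPM in PC9 replicates 1, 2 and 3, and 191, 180.1 and 185 CPM in PS replicates 1, 2 and 3. Every PS library lay below every PC9 library. The mean went from 211 ± 3.59 to 185 ± 5.53 CPM (SD, n = 3 each), a log2 fold change of -0.19 (standard error 0.0367, 95% interval -0.27 to -0.11, edgeR adjusted p = 0.000908). This was a fall of 12.2%, and YAP1 stood at rank 6089 by p-value.

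WWTR1 (ENSG00000018408, chromosome 3, 149517235 to 149736714, minus strand) encodes TAZ, the paralog of YAP. It had 176, 163 and 168 CPM in the 3 PC9 libraries and 129, 131 and 122 CPM in the 3 PS libraries. The PS values were again the lower ones throughout, without overlap. Its mean went from 169 ± 6.59 to 127 ± 4.75 CPM, a log2 fold change of -0.41 (standard error 0.0433, edgeR adjusted p = 8.42e-06), or a fall of 24.9%. The antisense gene WWTR1-AS1 overlaps 4366 bases of WWTR1 and is not listed in the gene table, and whether the counting used strand is not given in the sources used here. The same doubt holds for YAP1 and TEAD1, which overlap unnamed antisense genes, and for LATS2 and CCN2. Per transcript length (TPM, from the transcript counts and annotated lengths), the ratio of YAP1 to WWTR1 ran from 1.35 to 1.39 in PC9 and from 1.55 to 1.61 in PS. The difference of 0.21 in the log2 ratio had an exact two-sided permutation p of 0.1, the smallest that 3 libraries against 3 can give. The sum of both coactivators went from 170.1 ± 2.64 to 147 ± 7.82 TPM.

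Among the TEAD factors, which carry the DNA-binding domain, TEAD1 rose while TEAD4 missed the limit. TEAD1 (ENSG00000187079, chromosome 11, 12674421 to 12944737, plus strand) had 174, 168 and 174 CPM in PC9 and 315, 297 and 298 CPM in PS. The lowest PS library was far above the highest PC9 library. Its mean went from 172 ± 3.39 to 304 ± 9.89 CPM, a fold of 1.76 (95% interval 1.66 to 1.87, log2 fold change 0.82, standard error 0.0375, edgeR adjusted p = 1.34e-08).

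TEAD4 (ENSG00000197905, chromosome 12, 2959330 to 3040676, plus strand) had 42.5, 44.8 and 41.7 CPM in PC9 and 45.7, 48.6 and 50.8 CPM in PS. The highest PC9 library and the lowest PS library were close to each other, although the groups did not overlap. The means were 43.0 ± 1.61 and 48.4 ± 2.55 CPM, and the log2 fold change was 0.17 (standard error 0.0518, 95% interval 0.055 to 0.28, edgeR adjusted p = 0.0131). Without PC9 replicate 2 the edgeR adjusted p of TEAD4 was 0.00575, and without PS replicate 1 it was 0.00752, so that the call depended on these libraries. Over all 16 alternatives its adjusted p ran from 0.00575 to 0.0744, with the same direction in each.

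The other two TEAD genes, which are not members and are named because they complete the family, had log2 fold changes of -0.10 (TEAD2, edgeR adjusted p = 0.0480) and -0.037 (TEAD3, edgeR adjusted p = 0.547). Per length, the 4 TEAD genes together went from 215 ± 10.7 to 261 ± 5.03 TPM. The share of TEAD1 in this sum went from 20.4% ± 1.03 to 30.4% ± 1.53, and that of TEAD4 from 24.9% ± 0.341 to 23.4% ± 1.15. The ratio of TEAD1 to TEAD4 was 0.762 to 0.863 in PC9 and 1.195 to 1.428 in PS. By TPM, TEAD4 was thus the higher of the pair in each PC9 library and TEAD1 in each PS library. The exact two-sided permutation p was 0.1, again the smallest possible. These per-length levels depend on annotated transcript lengths, and the long TEAD1 transcripts lower its TPM relative to its CPM. The main transcripts, TEAD1-206 and TEAD4-202, had another version in the annotation than in the counts. Their annotated lengths may therefore differ from those of the transcripts counted. TPM also carry no TMM factors, so that group differences in TPM and CPM need not be equal. TEAD2 went from 74.2 to 76.3 TPM and TEAD3 from 43.7 to 44.3 TPM, although both had log2 fold changes below 0 by CPM.

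**Figure D3:**
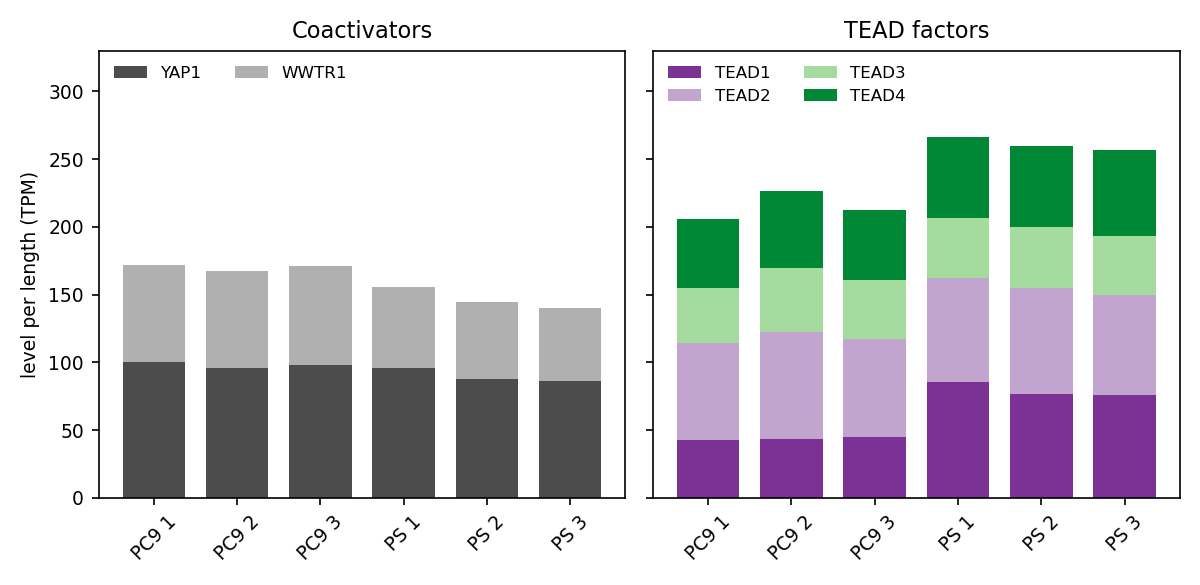
Stacked bars of TPM in each of the 6 libraries, with YAP1 and WWTR1 in the left panel and the 4 TEAD genes in the right panel. The TEAD bars are taller in PS, where TEAD1 takes 79.3 TPM on average against 43.8 TPM in PC9, and the coactivator bars are shorter.

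The 3 pathway regulators did not move by like amounts. LATS2 (ENSG00000150457, chromosome 13, 20973036 to 21061586, minus strand), a kinase that phosphorylates YAP and TAZ and is itself a known YAP target, had 30.2, 30.1 and 31.2 CPM in PC9 and 33.8, 32.02 and 34.4 CPM in PS. The PS libraries were all slightly higher. Its means were 30.5 ± 0.652 and 33.4 ± 1.22 CPM, and the log2 fold change of 0.13 (standard error 0.0483, 95% interval 0.024 to 0.24, edgeR adjusted p = 0.0321) was not called. LATS2-AS1, on the other strand and not listed in the gene table, overlaps 12966 bases of LATS2.

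AMOTL2 (ENSG00000114019, chromosome 3, 134355347 to 134375479, minus strand) encodes a member of the motin family, which binds YAP at junctions and actin. It had 281, 308 and 293 CPM in PC9 and 323, 318 and 333 CPM in PS. The groups lay side by side, with 308 CPM as the highest PC9 and 318 CPM as the lowest PS value. The log2 fold change was 0.14 (standard error 0.0406, 95% interval 0.053 to 0.23, edgeR adjusted p = 0.00916), just within the limit. The adjusted p passed the limit when any 1 library other than PC9 replicate 2 was left out, at 0.0219 without PC9 replicate 1, 0.0388 without PC9 replicate 3, and 0.0203, 0.0167 and 0.0509 without PS replicates 1, 2 and 3 (edgeR). In all, 9 of 16 alternatives lost the call, with an adjusted p between 0.00161 and 0.0856 over the 16 and the same direction in each.

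AJUBA (ENSG00000129474, chromosome 14, 22971177 to 22982551, minus strand) encodes a LIM protein that binds LATS kinases and restrains them. In PC9 it had 37.2, 45.8 and 43.7 CPM, with replicate 1 as the lowest, and in PS it had 98.4, 93.8 and 95.4 CPM. All PS libraries stood well above all PC9 libraries. AJUBA rose from 42.2 ± 4.51 to 95.9 ± 2.34 CPM, a fold of 2.27 (95% interval 2.05 to 2.52, log2 fold change 1.18, standard error 0.0669, edgeR adjusted p = 6.65e-08). An annotated protein-coding gene on the same strand, ENSG00000259132, overlaps 11082 bases of AJUBA. It is not listed under its identifier in the gene table, and the transcripts matched to AJUBA summed to 95.02% of its gene count.

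Of the 3 target genes, ANKRD1 and CCN1 rose and CCN2 fell. ANKRD1 (ENSG00000148677, chromosome 10, 90912096 to 90921087, minus strand), a nuclear ankyrin repeat protein, had 12.6, 13.4 and 12.8 CPM in PC9 and 39.2, 37.7 and 35.96 CPM in PS. The groups were far apart and each was tight. Its mean went from 12.9 ± 0.406 to 37.6 ± 1.60 CPM, a fold of 2.90 (95% interval 2.67 to 3.16, log2 fold change 1.54, standard error 0.0556, edgeR adjusted p = 2.07e-09). ANKRD1 had the largest log2 fold change of the 10 members, here and under each of the 16 alternatives (1.48 to 1.57). Its promoter, printed above, holds 2 TEAD motifs with a TGANTCA match between them.

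CCN1 (also CYR61, ENSG00000142871, chromosome 1, 85580761 to 85584589, plus strand), a secreted matricellular protein, had 177, 192 and 184 CPM in PC9. In PS it had 489.7, 493 and 491 CPM. The PS libraries were nearly equal to each other and all above PC9. CCN1 rose from 185 ± 7.75 to 491 ± 1.77 CPM, a fold of 2.66 (95% interval 2.51 to 2.82, log2 fold change 1.41, standard error 0.0384, edgeR adjusted p = 2.81e-10), and it ranked 90 by p-value.

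CCN2 (also CTGF, ENSG00000118523, chromosome 6, 131948176 to 131951372, minus strand), of the same family as CCN1, had 63.0, 62.0 and 61.3 CPM in PC9 and 49.7, 52.5 and 49.9 CPM in PS. All PS libraries lay below all PC9 libraries. Its mean went from 62.1 ± 0.848 to 50.7 ± 1.54 CPM, a log2 fold change of -0.29 (standard error 0.0417, edgeR adjusted p = 9.17e-05), or a fall of 18.4%. The CCN2 promoter printed above is the one with 3 TEAD motifs. An antisense gene, LINC01013, covers CCN2 on the other strand in the annotation and is not listed in the gene table.

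The ratio of CCN1 to CCN2, a pair chosen after their values had been seen, was 2.92, 3.22 and 3.11 in the PC9 libraries and 10.3, 9.74 and 10.2 in the PS libraries on the TPM scale. The log2 ratio differed by 1.71, given as a description since the pair was chosen for it.

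**Figure D4:**
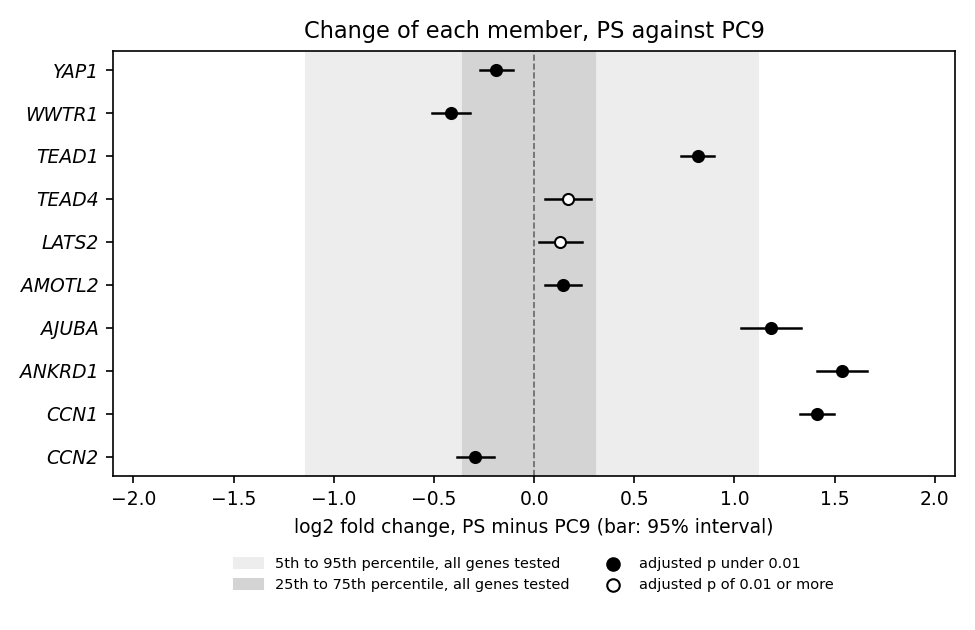
Log2 fold change of each member (horizontal axis), PS against PC9, with its 95% interval from edgeR, filled points for called genes and shading from the 25 to the 75 and from the 5 to the 95 percentile of all genes tested. The intervals of ANKRD1, CCN1, AJUBA and TEAD1 lie far above 0, those of TEAD4, LATS2 and AMOTL2 lie just above it, and those of YAP1, CCN2 and WWTR1 lie below it.

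Levels between genes can be set side by side only per length. In PC9 the order by mean TPM was CCN1 (156), AMOTL2 (122), YAP1 (98.1), WWTR1 (72.0), TEAD4 (53.5), CCN2 (50.5), TEAD1 (43.8), AJUBA (22.3), ANKRD1 (13.8) and LATS2 (10.6). The ranges of TEAD4 and CCN2 overlapped there, and those of all other neighbours did not. The order in PS was CCN1 (431), AMOTL2 (139), YAP1 (89.9), TEAD1 (79.3), TEAD4 (61.1), WWTR1 (56.8), AJUBA (55.1), CCN2 (42.8), ANKRD1 (41.5) and LATS2 (12.5). In PS, WWTR1 overlapped with AJUBA and CCN2 with ANKRD1. TEAD1 thus moved from below WWTR1, TEAD4 and CCN2 to above all 3, and AJUBA from under CCN2 to above it.

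Which transcripts a gene used was a readout that the choice of members had not drawn on. Usage could be tested in 7 members with edgeR's diffSpliceDGE, and 0 were called, against 1.93% of 10545 genes. The count at an unadjusted p under 0.05 was also 0, and the F test of the same tool likewise called 0. LATS2, ANKRD1 and CCN2 had 1 transcript past the filter each and were not tested. Of TEAD1 counts, 61.5% in PC9 and 60.5% in PS were on TEAD1-206, with 36.6% and 37.4% on TEAD1-203. TEAD4-202 took 78.5% of TEAD4 in PC9 and 83.2% in PS, and AMOTL2-201 took 63.0% and 64.3% of AMOTL2. WWTR1-203 took 81.6% of WWTR1 in PC9 and 78.1% in PS, and WWTR1-201 took 16.6% and 19.8%, both without overlap between groups. AJUBA-201 took 80.6% of AJUBA in PC9 and 72.7% in PS, also without overlap. AJUBA-202, annotated with 121 residues against 538 of AJUBA-201, took 17.9% ± 6.39 in PC9 and 25.2% ± 1.78 in PS, and the groups overlapped. The shares did not overlap for 3 of the 12 transcripts that held at least 10% of a member tested for usage, near the 24.4% of such transcripts over all genes tested for usage. YAP1-210 was at 4.07% of YAP1 in PS replicate 1, at 16.2% and 16.9% in PS replicates 2 and 3, and between 15.4% and 18.2% in PC9. Without PS replicate 2, YAP1 usage was called (edgeR adjusted p = 0.0056, against 0.27 to 1 under the other alternatives). The fits without PS replicates 1 and 3 had adjusted p-values close to 1 (edgeR), and the cause of the call was not tested. Tested one by one, 8 of the 15 transcripts with at least 10% of a member were called, against 14.8% of the 25602 such transcripts tested over all genes. They were WWTR1-203, TEAD1-206, TEAD1-203, AJUBA-201, AJUBA-202, ANKRD1-201, CCN1-201 and CCN2-201, each in the direction of its gene. ANKRD1-201, CCN1-201 and CCN2-201 held all or nearly all counts of their genes, so that these calls largely repeat the gene calls. Calls of single transcripts are thus not a readout of usage. The 14.8% was taken over transcripts of any level past the filter, so that the shares were not matched for depth.

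The wider pathway was read through 5 lists of genes written from general knowledge, with earlier results of these data known for other genes. The members are part of these lists, except for the actin and SRF list, which holds 0 of them. LATS2 is in both the kinase and the target list, and AMOTL2 and PTPN14 are in both the junction and the target list. Counts and medians of these lists are therefore not independent. Of 21 genes of the Hippo kinase cascade, 7 were higher, 7 were lower and 7 were not called. The share called was 66.7%, against 56.8% over all genes tested. Their median log2 fold change was 0.10, against -0.0061 over all genes tested. By smallest p, the called genes that rose were WWC1 (178 to 259.7 CPM), WWC2 (83.1 to 136 CPM) and FRMD6 (48.6 to 78.1 CPM), scaffolds that act upstream of the LATS kinases. STK3, which encodes the kinase MST2, fell from 76.3 to 51.5 CPM, TAOK3 from 123 to 87.1 CPM and TNIK from 31.0 to 20.6 CPM, all kinases. LATS1 and NF2, named after their values had been seen, had log2 fold changes of 0.27 and 0.52 (edgeR adjusted p = 0.00138 and 2.05e-05).

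Of 20 junction and polarity regulators, 10 rose, 5 fell and 5 were not called, with a median of 0.20. Over all genes tested 56.8% were called, 28.7% as higher and 28.1% as lower in PS. FAT1, a giant cadherin upstream of Hippo signalling, rose from 143 to 276 CPM, TJP1, a tight junction scaffold, from 323 to 459 CPM, and the polarity gene PARD3 had a log2 fold change of 0.36. AMOT, a motin related to AMOTL2, fell from 125 to 90.5 CPM, and AMOTL1, named after its value had been seen, had a log2 fold change of -0.16 (adjusted p = 0.00171, edgeR). The polarity genes MPP5 (227 to 165 CPM) and LLGL2 (68.3 to 44.05 CPM) fell as well. The 3 motin genes therefore did not share a direction.

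Of the TEAD factors and cofactors, 9 of 10 passed the filter, of which 2 rose, 3 fell and 4 were not called. Their median was -0.037, and 55.6% were called, near the 56.8% over all genes tested. VGLL1 and VGLL3 encode cofactors that bind TEADs at a site shared with YAP. VGLL1 fell from 169.8 to 101 CPM and VGLL3 rose from 64.6 to 90.3 CPM. VGLL4, named after its value had been seen, had a log2 fold change of -0.0092 (adjusted p = 0.859, edgeR).

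Of 22 genes listed as YAP and TAZ targets, 14 rose, 3 fell and 5 were not called, with a median of 0.58. The share called, 77.3%, stood beside 56.8% over all genes. Leaving out the members, 11 of 17 rose and 2 fell, where 28.7% of all genes were called as higher and 28.1% as lower. GADD45A, a stress-induced regulator of the cell cycle, rose from 66.0 to 188 CPM, IGFBP3 (a secreted binding protein of insulin-like growth factors) from 449 to 1135 CPM, and TGFB2 (a secreted growth factor) from 215 to 530.4 CPM. NT5E, the surface enzyme CD73, fell from 170.1 to 37.1 CPM (log2 fold change -2.20), and MYOF from 467 to 378 CPM. F3, the gene of tissue factor and named after its value had been seen, had a log2 fold change of 0.0070 (adjusted p = 0.864, edgeR). The list thus held rises beyond 2-fold together with a fall beyond 4-fold.

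Of 19 genes of actin and SRF, a second tension-sensitive programme, 16 rose, 1 fell and 2 were not called. The median was 0.63, and 89.5% were called, against 56.8% over all genes tested. TAGLN, an actin-binding protein of contractile cells, rose from 14.6 to 115 CPM, MYL9, a light chain of myosin, from 22.4 to 112 CPM, and MYH9, the heavy chain of non-muscle myosin, from 1406 to 3670.4 CPM. ACTA2, the smooth muscle actin, fell from 4.1997 to 1.98 CPM. CNN1, the calponin of smooth muscle and named after its value had been seen, had the highest point of the lists with 0.735 CPM in PC9 and 7.62 CPM in PS (log2 fold change 3.37). The fibroblast marker COL1A1 moved upward with this list, while the other 5 fibroblast markers stayed under 1 CPM in every library.

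**Figure D5:**
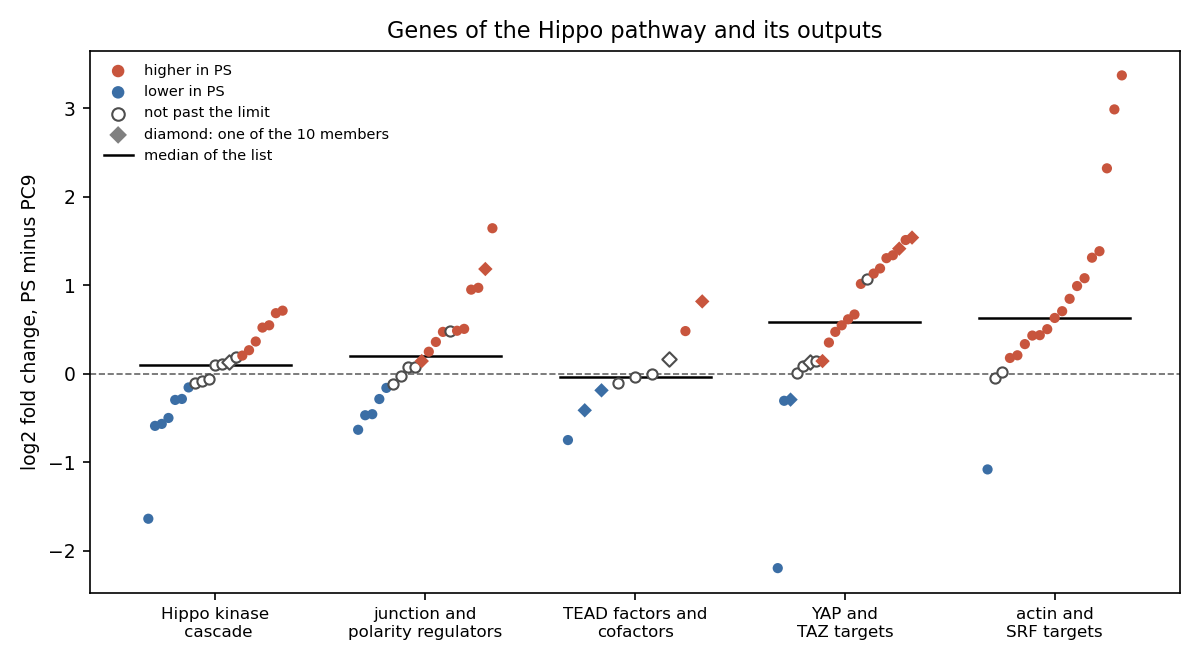
Log2 fold change of every tested gene of the 5 lists, PS against PC9, with filled markers for called genes, open markers for the rest, diamonds for the 10 members and a bar for the median of each list. The medians of the YAP and TAZ targets (0.58) and of the actin and SRF genes (0.63) lie above those of the other 3 lists.

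The genes with the pattern most like 3 of the members were taken from 10322 genes with a mean log2 CPM above 3, by the Euclidean distance of mean-centred log2 CPM over the 6 libraries. For YAP1 they were AKAP8L, ARMC10 and AGFG1, at distances of 0.0197, 0.0329 and 0.0418. For CCN1 they were MYH9, which also belongs to the actin list, HLA-DQB1 and KRT80, at 0.0485, 0.0672 and 0.0747. For CCN2 they were SPATS2L, IRAK4 and A2ML1, at 0.0304, 0.0375 and 0.0411. The 6 libraries fall into 2 groups, so that any gene with an equal fold change and little spread has a small distance.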

How the data were processed

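Bulk RNA-seq of 3 PC9 and 3 PS libraries was used, grouped by the sample labels, with the dose and culture numbers from the study's methods. The authors made poly-A libraries, filtered the reads and pseudoaligned them to the Ensembl transcriptome (GRCh38) by kallisto 0.46.1. They deposited its estimated counts, rounded to whole numbers and without normalization, per gene symbol and per transcript. Kallisto divides reads shared by similar transcripts, which makes isoform counts less certain. The submitters' processing notes also name sleuth 0.30.0.

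The whole gene table was analysed in R 4.3.3 with edgeR 4.0.16 (filterByExpr defaults, TMM, glmQLFit, glmQLFTest, Benjamini-Hochberg over all genes tested, limit 0.01). A standard error is the size of the log2 fold change divided by the square root of F. Transcripts were tested likewise, and usage with diffSpliceDGE and its Simes p. TPM were computed from transcript counts and annotated lengths in GENCODE 44, by which 167067 of 188753 transcripts (95.8% of the counts) were matched, and coordinates are from that annotation. TPM were scaled to the total of each library, without TMM factors. Ratios were compared by an exact permutation test (scipy 1.17.1). Figures were drawn with matplotlib 3.10.9. The tests across genes were tested on simulated data.

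The members and lists were chosen with earlier results of these data known. Named genes are the members, up to 3 called genes with the smallest p in each direction of each list, transcripts with at least 10% of a member, and the 3 nearest genes in pattern for YAP1, CCN1 and CCN2; exceptions are stated in the text. Alternatives tried were limma 3.58.1 (voom), DESeq2 1.42.0, other normalizations and filters, counts summed from transcripts, a replicate block, a limit of 0.05 and each library left out.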

Additional observations from a re-analysis of the deposited data

How the results depend on the processing

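Over the alternatives, 7 to 10 of the 10 members were called (7 to 9 with a library left out, 10 at a limit of 0.05), and 0 of the 10 members changed direction. At the limit of 0.05, 9931 of the 14626 genes tested were called as well. TEAD4 and LATS2 gained a call, and AMOTL2 lost it, under the settings given here or beside their values. AMOTL2 had a log2 fold change of 0.0997 with upper-quartile normalization (edgeR adjusted p = 0.0460) and 0.089 with library size only (edgeR adjusted p = 0.0856), and also lost the call with a minimum count of 50 and with counts summed from transcripts. TEAD4 was called with the replicate block and both TEAD4 and LATS2 at a limit of 0.05. Usage was called in 0 to 1 of the members with a library left out, the 1 being YAP1 without PS replicate 2. Genes called over the whole table ran from 7054 to 8407 with a library left out.

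The replicate numbers are shared by the groups but nothing says that they mark a shared culture or day. The deviations of same-numbered libraries correlated at 0.124, 0.0236 and 0.0215 across genes. PC9 replicates 1 and 3 correlated best with the PS library of their own number, and PC9 replicate 2 with PS replicate 3 (0.0971). As these values were small and no label marks pairs, the numbers were not treated as pairs. With the replicate block 9 members and 8671 genes in all were called. The shallowest member, ANKRD1, had at least 432 counts in each library, whereas shares of minor transcripts rest on kallisto's division of shared reads.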
